A study of Mus musculus with 7 samples.

Results

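The thrombospondins are a family of 5 genes, *Thbs1*, *Thbs2*, *Thbs3*, *Thbs4* and *Comp* (cartilage oligomeric matrix protein, also called thrombospondin 5), and their transcripts were measured in mouse aorta. The members were taken by symbol, and each matched 1 Ensembl identifier, so that 5 of the 47729 genes of the table are described. All 5 had 48 or more counts in every library and were among the 19188 genes tested. The libraries came from whole aorta of *Mmp19*-/- mice (KO, 3 libraries) and of wild-type mice (WT, 4 libraries). The labels used here give no strain, age, sex or construction of the *Mmp19* allele and do not say that each library is a separate mouse, so p-values measure the spread between these 7 libraries. The series title places the matrix metalloproteinase MMP19 in vascular smooth muscle, in protection against thoracic aortic aneurysm and dissection through aggrecan and Wnt/β-catenin.

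Thrombospondins are secreted, calcium-binding glycoproteins of the matrix that act less as building blocks than as organisers between cells, collagens, growth factors and proteases. TSP-1 and TSP-2 form trimers with type 1 repeats, which bind CD36 on endothelial cells. TSP-1 can also release active TGF-β from its latent complex, and through CD47 it dampens nitric oxide signalling. TSP-3, TSP-4 and COMP form pentamers, lack the type 1 repeats and are best known from bone, tendon, muscle and cartilage. In arteries, TSP-1 is low in the resting wall and is induced by injury and strain, and in mice it has been linked to thoracic aneurysm, while COMP has been linked to keeping smooth muscle cells contractile through integrin α7β1. Purified human MMP19 cleaves aggrecan and COMP, which is a further reason to look at the family in this knockout.

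The genes lie on different chromosomes (GENCODE M21, GRCm38, the build named in the submitters' processing notes). *Thbs1* (ENSMUSG00000040152) spans 118111876 to 118127133 on chromosome 2 and *Thbs2* (ENSMUSG00000023885) 14665500 to 14694235 on chromosome 17. *Thbs3* (ENSMUSG00000028047) spans 89215180 to 89226837 on chromosome 3, *Thbs4* (ENSMUSG00000021702) 92751590 to 92794818 on chromosome 13 and *Comp* (ENSMUSG00000031849) 70373558 to 70382066 on chromosome 8. Since the strand setting of the counts is not given, overlaps on the opposite strand matter. *Mtx1*, a mitochondrial import gene, is annotated across the whole of *Thbs3* and shares 318 exonic bases with it. Its counts were 1550 to 1832 in KO and 1473 to 1941 in WT, against 3865 to 5517 in KO and 4912 to 7634 in WT for *Thbs3*. The non-coding *Gm29233* shares 208 bases with *Thbs1* but had at most 40 counts in a library, where *Thbs1* had 12136 or more.

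RefSeq's promoter table (GRCm38.p6) held *Thbs2*, *Thbs3* and *Thbs4*. Their 250 bases before the start site are shown because *Thbs2* and *Thbs4* read higher in KO and *Thbs3* lower. Capitals mark matches, on either strand, to the TATA motif TATAAA, the CCAAT motif, the GC box GGGCGG, the AP-1 motif TGANTCA, the TEAD motif GGAATG and the CArG box, the binding motif of serum response factor.
Thbs2 (chr17:14694263-14694512, minus strand): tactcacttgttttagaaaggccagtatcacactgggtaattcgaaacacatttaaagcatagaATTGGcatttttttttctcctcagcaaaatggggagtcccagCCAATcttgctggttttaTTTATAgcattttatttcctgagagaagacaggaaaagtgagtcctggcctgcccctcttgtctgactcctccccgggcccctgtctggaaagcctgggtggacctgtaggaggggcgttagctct
Thbs4 (chr13:92794819-92795068, minus strand): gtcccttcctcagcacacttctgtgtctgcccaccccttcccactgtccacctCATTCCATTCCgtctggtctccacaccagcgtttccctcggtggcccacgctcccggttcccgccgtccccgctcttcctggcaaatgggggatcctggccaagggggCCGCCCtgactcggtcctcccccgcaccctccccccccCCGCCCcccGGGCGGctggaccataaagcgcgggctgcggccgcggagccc
Thbs3 (chr3:89214930-89215179, plus strand): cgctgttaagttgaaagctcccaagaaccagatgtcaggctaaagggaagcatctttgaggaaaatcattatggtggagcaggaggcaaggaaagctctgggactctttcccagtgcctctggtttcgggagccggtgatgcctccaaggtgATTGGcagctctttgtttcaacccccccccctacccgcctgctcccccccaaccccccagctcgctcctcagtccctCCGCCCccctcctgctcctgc
The *Thbs2* window was 46.8% G and C and held a TATA motif, found in 13% of 27025 promoter windows of the same length, and 2 CCAAT motifs, found in 34.5%. The *Thbs4* window was 70.8% G and C, where the median of all windows was 52.0%, and held 3 GC boxes and 2 TEAD motifs that overlap by 1 base. GC boxes were found in 32.9% of all windows and TEAD motifs in 12.6%. The *Thbs3* window was 58.8% G and C and held 1 CCAAT motif and 1 GC box. None of these 3 windows held the AP-1 motif (6.87% of all windows) or the CArG box (1.4%), and the windows of *Thbs2* and *Thbs4* shared no motif of this set.

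The estimated counts of a library totalled 71061475 to 76926790 in KO, against 68151472 to 75132809 in WT. *Mmp19* itself was still counted in KO, at 25.5, 12.0 and 15.9 CPM (counts scaled to one common library size, with TMM factors) in replicates 1, 2 and 3, against 24.8, 24.8, 20.7 and 34.7 CPM in WT. The deletion was not checked by exon. On the opposite strand, *Tmem198b* shares 789 exonic bases with *Mmp19* and *Gm47093* shares 212. *Tmem198b* had 1249 to 1890 counts in KO, against 1098 to 1390 in WT, and *Mmp19* had 837 to 2098 counts in KO, against 1440 to 2554 in WT. With the strand setting unknown, reads of these genes cannot be told apart in the shared bases, and KO below means a library labelled as knockout. *Acta2*, smooth muscle actin, was at 1674 to 6165 CPM in KO, against 7989 to 9202 CPM in WT, and all 10 smooth muscle markers were detected. KO replicate 1 stood apart from the other KO libraries, with the lowest quality weight in limma-voom (0.256, where the others had 0.753 to 2.61), and its effect is given with each member. In RNA of whole tissue, fewer cells of a type and less RNA per cell cannot be told apart.

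Of the 5 thrombospondin genes, 4 had higher means in KO and *Thbs3* a lower one. *Thbs1* and *Thbs4* were more than 4-fold higher, with ratios of means of 4.59 and 4.23, *Thbs2* and *Comp* were 2.47-fold and 2.43-fold higher, and *Thbs3* was at 0.727 times its WT mean. In 3 genes (*Thbs1*, *Thbs2*, *Thbs4*) the lowest KO library exceeded the highest WT library, where 8.17% of all genes tested did so. *Thbs3* was the reverse by the narrowest of margins, and 8.56% of all genes tested had every KO library below every WT library. A log2 fold change of 1 or more was found for 4 of the 5 members and for 8.55% of all genes tested. The median log2 fold change was 1.31 over the 5 members and -0.028 over all genes tested.

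edgeR's quasi-likelihood test called 0 of the 5 members at an adjusted p of 0.05, and 0.0156% of all genes tested, which is 3 genes. At an unadjusted p under 0.05 it counted all 5 members and 17.2% of all genes tested, with 4 members and 9.92% of all genes higher in KO and *Thbs3* and 7.27% of all genes lower. DESeq2 called *Thbs1*, *Thbs2* and *Thbs4* higher, and 5.32% of all genes tested in that direction. It called 0 members lower and 3.05% of all genes, which makes 8.37% in either direction. limma-voom with quality weights called 0 members and 0.0365% of all genes. Without KO replicate 1 DESeq2 called *Thbs1* alone of the members, with 3.9% of all genes tested called in either direction. Without KO replicate 2, the KO library nearest to WT, edgeR called *Thbs1*, with 3.34% of all genes tested called higher and 5.16% in either direction.

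**Figure D1:**
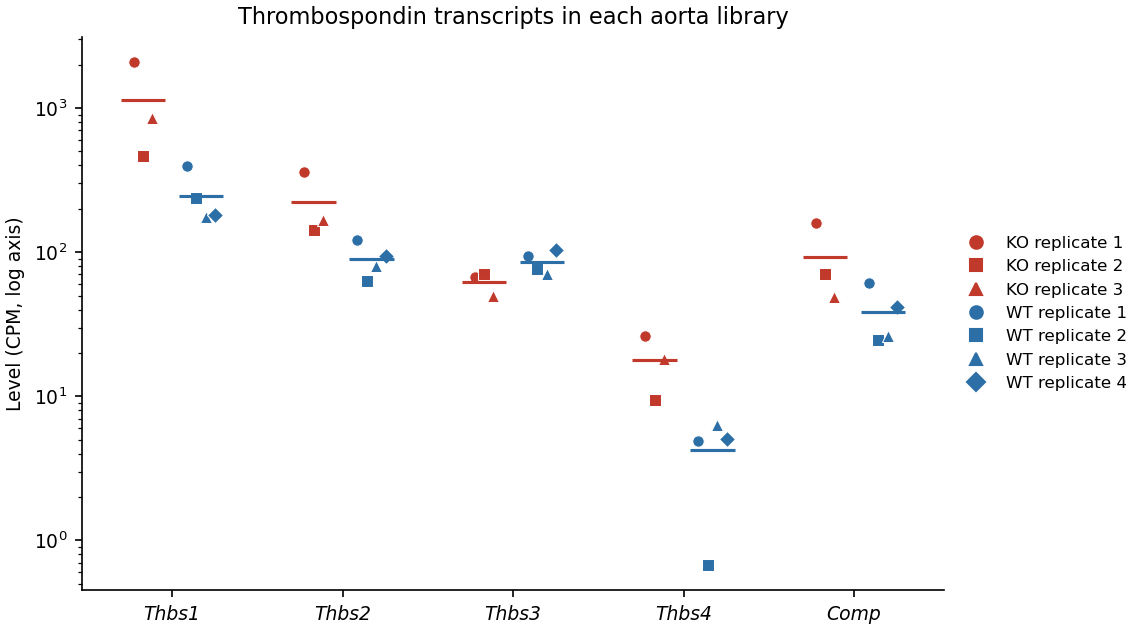
Level of each thrombospondin gene in CPM, on a log axis, in the 3 KO libraries (red, left) and the 4 WT libraries (blue, right) of each gene, with bars at the group means. The KO libraries lie above all WT libraries for Thbs1, Thbs2 and Thbs4, touch the lowest WT library from below for Thbs3, and overlap with WT for Comp.

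*Thbs1* encodes TSP-1, the trimer that platelets store in their granules and that injured vessel wall makes itself. It read 2087, 464 and 850.1 CPM in KO replicates 1, 2 and 3, against 394, 239, 174 and 181 CPM in WT replicates 1 to 4. All KO libraries were above all WT libraries, but the KO libraries also differed by more among themselves (coefficient of variation 74.8%) than WT did (41.5%). The means were 1134 ± 848 CPM in KO, against 247 ± 103 CPM in WT (± SD, 3 KO and 4 WT libraries). The log2 fold change was 2.20 (SE 0.53; adjusted p = 0.171 in edgeR). It was 1.41 without KO replicate 1 (adjusted p = 0.318) and 2.63 without KO replicate 2 (adjusted p = 0.0356). DESeq2 gave 2.22 (adjusted p = 0.001), and its call held without any 1 library, with adjusted p-values up to 0.0116.

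*Thbs2* encodes TSP-2, the second trimer, which shapes collagen fibrils and, like TSP-1, restrains new vessel growth. KO replicates 1, 2 and 3 had 357, 142 and 166 CPM, and WT replicates 1 to 4 had 121, 62.9, 80.0 and 94.4 CPM. The groups did not overlap, and KO replicate 2 was at 1.172 times the highest WT library. The means were 222 ± 118 CPM in KO, against 89.7 ± 24.7 CPM in WT (± SD, 3 KO and 4 WT libraries), with a log2 fold change of 1.31 (SE 0.36; adjusted p = 0.181 in edgeR). Without KO replicate 1 it was 0.78 (adjusted p = 0.343), and the DESeq2 call (adjusted p = 0.0116) was then lost, as it was without WT replicate 2 or WT replicate 3. The largest of DESeq2's adjusted p-values with 1 library left out was 0.0673.

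*Thbs4*, the pentamer of tendon and of heart and skeletal muscle, was the scarcest member. It was at 26.0, 9.44 and 18.2 CPM in KO replicates 1, 2 and 3, against 4.86, 0.676, 6.32 and 5.02 CPM in WT. KO replicate 2 was 1.492 times the highest WT library, the widest gap in the family, and WT replicate 2, with 48 counts, lay below the other WT libraries. Mean levels were 17.9 ± 8.27 CPM in KO, against 4.22 ± 2.45 CPM in WT (± SD, 3 KO and 4 WT libraries), with a log2 fold change of 2.08 (SE 0.67; adjusted p = 0.206 in edgeR). The value was 1.70 without KO replicate 1 (adjusted p = 0.457), and 1.77 with an SE of 0.40 without WT replicate 2 (adjusted p = 0.29). DESeq2's call (adjusted p = 0.021) was lost without WT replicate 1, WT replicate 4, KO replicate 1 or KO replicate 3, with adjusted p-values up to 0.171.

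*Comp*, the pentamer of cartilage and tendon that human MMP19 can cut, overlapped between the groups. It read 159.8, 71.1 and 48.8 CPM in KO replicates 1, 2 and 3 and 61.0, 24.5, 26.4 and 41.9 CPM in WT replicates 1 to 4. KO replicate 3 lay below WT replicate 1, and the other KO libraries lay above all WT libraries. The means were 93.2 ± 58.7 CPM in KO, against 38.4 ± 16.9 CPM in WT (± SD, 3 KO and 4 WT libraries). A log2 fold change of 1.28 (SE 0.47; adjusted p = 0.233 in edgeR) became 0.64 without KO replicate 1 (adjusted p = 0.599), 1.61 without KO replicate 3 and 1.64 without WT replicate 1. DESeq2 did not call it with all libraries (adjusted p = 0.0624) but did without WT replicate 1, KO replicate 2 or KO replicate 3, with adjusted p-values down to 0.0225. Of all genes tested, DESeq2 called 5.51%, 15.9% and 5.08% without these libraries in turn, against 8.37% with all libraries.

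*Thbs3*, a pentamer known from bone and, in mouse heart, from weakening integrins at the muscle membrane, was the only member with a negative log2 fold change. It was at 67.1, 70.4 and 50 CPM in KO replicates 1, 2 and 3, against 93.5, 76.4, 70.4 and 104 CPM in WT. KO replicate 2 and WT replicate 3 had almost the same level (ratio 0.9994), and the groups overlapped when libraries were scaled by their totals or by the upper quartile. It was also the steadiest member, with a coefficient of variation of 17.5% in KO and 17.8% in WT. Means were 62.5 ± 10.9 CPM in KO, against 86.0 ± 15.3 CPM in WT (± SD, 3 KO and 4 WT libraries), with a log2 fold change of -0.46 (SE 0.18; adjusted p = 0.259 in edgeR), which was -0.31 without KO replicate 3 and -0.52 without KO replicate 1. Neither DESeq2 (adjusted p = 0.164) nor limma-voom (log2 fold change -0.68, adjusted p = 0.107) called it.

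**Figure D2:**
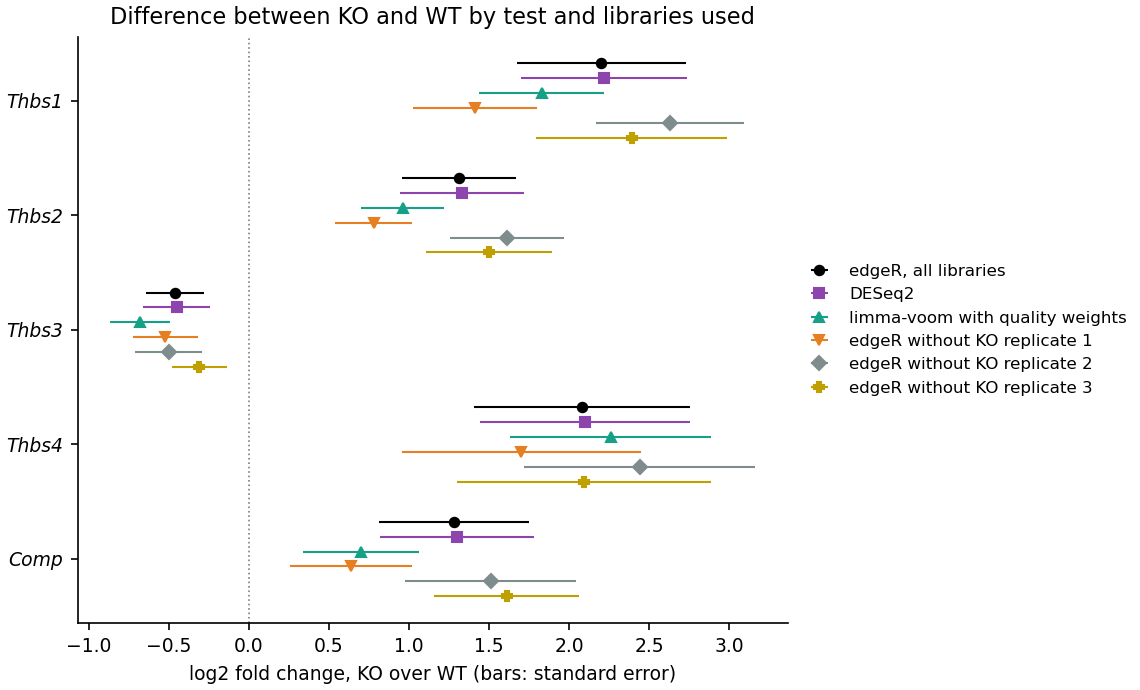
Log2 fold change of KO over WT with its standard error for each member, from edgeR, DESeq2 and limma-voom on all libraries and from edgeR without each KO replicate. Without KO replicate 1 the values of Thbs1, Thbs2, Thbs4 and Comp are nearest to 0 (1.41, 0.78, 1.70 and 0.64), while Thbs3 is nearest to 0 without KO replicate 3.

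To compare the members with each other, CPM were divided by the summed length of a gene's exons, which gives CPM per kb. In KO the order was *Thbs1* (187 ± 140 CPM per kb), *Thbs2* (31.7 ± 16.8), *Comp* (31.4 ± 19.8), *Thbs3* (13 ± 2.26) and *Thbs4* (5.43 ± 2.51; SD, n = 3). In WT it was *Thbs1* (40.7 ± 16.9 CPM per kb), *Thbs3* (17.8 ± 3.17), *Comp* (13 ± 5.71), *Thbs2* (12.8 ± 3.53) and *Thbs4* (1.28 ± 0.746; SD, n = 4). *Comp* and *Thbs2* did not differ beyond their spread in either group, and in WT the range of *Thbs3* overlapped with both. Within each WT library, however, *Thbs3* stood above *Thbs2*. It stood above *Comp* in all WT libraries but WT replicate 1 (19.4 against 20.6 CPM per kb). *Thbs1* was the highest member and *Thbs4* the lowest in each of the 7 libraries, and *Thbs3* stood below *Thbs2* and *Comp* in every KO library.

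The family sum was 470.3, 138 and 196 CPM per kb in KO replicates 1, 2 and 3, against 124, 72.7, 65.5 and 80.4 CPM per kb in WT. *Thbs1* made up 73.1%, 55.3% and 71.4% of it in KO, against 52.5%, 54.2%, 43.8% and 37.0% in WT, so that each KO share was above each WT share. *Thbs3* made up 2.96%, 10.6% and 5.29% in KO, against 15.7%, 21.8%, 22.3% and 26.7% in WT, with no overlap either. The shares of *Thbs2* (10.8% to 14.7% in KO, 12.4% to 17.4% in WT) and *Comp* (8.39% to 17.3% in KO, 11.4% to 17.6% in WT) overlapped. Ratios within a library do not depend on the scaling between libraries. *Thbs2* stood to *Thbs3*, per kb, at 3.67, 1.39 and 2.29 in KO and at 0.567 to 0.893 in WT, and *Comp* to *Thbs3* at 3.87, 1.64 and 1.59 in KO and at 0.521 to 1.06 in WT. Both ratios separated the groups without overlap, whereas the level of *Comp* overlapped. *Thbs1* stood to *Thbs2* at 3.76 to 6.74 in KO and at 2.21 to 4.38 in WT, and these ranges overlapped. The ratios were chosen after the levels had been seen and are given without a test.

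**Figure D3:**
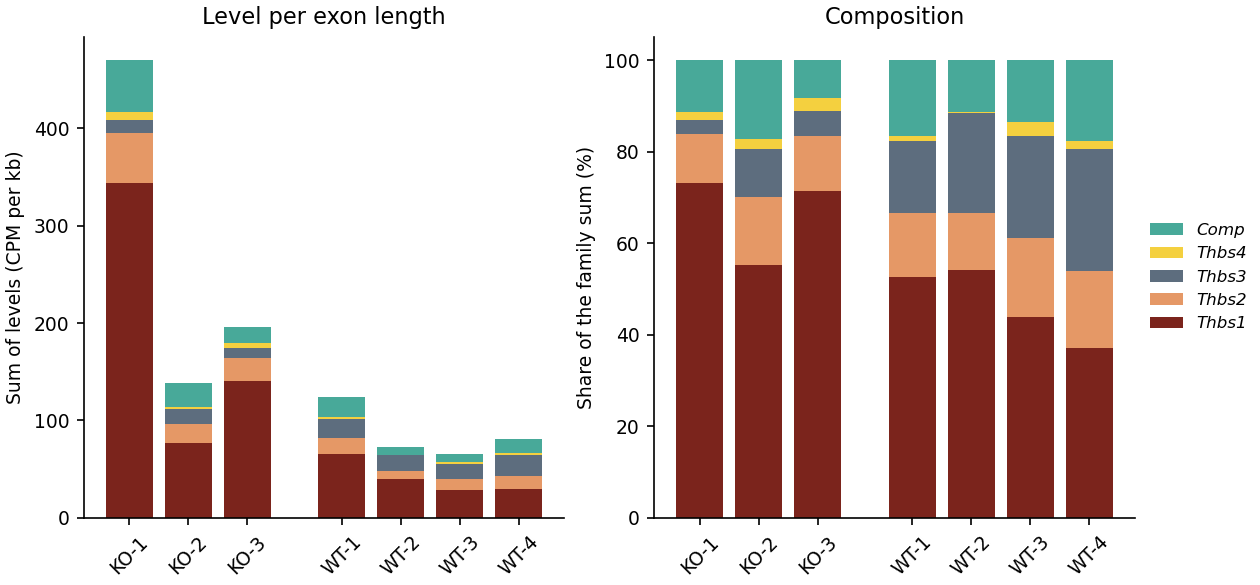
Sum of the 5 members' levels in CPM per kb of exon (left) and the share of each member in that sum in % (right), for KO-1 to KO-3 and WT-1 to WT-4. The Thbs3 share is 10.6% or less in the KO libraries and 15.7% or more in the WT libraries, and the Thbs1 share is 55.3% or more in KO and 54.2% or less in WT.

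By the distance between profiles over the 7 libraries (root mean square difference of log2 CPM, each gene centred on its mean), *Comp* and *Thbs2* were the closest pair of members, at 0.28. *Thbs2* ranked 2 among the neighbours of *Comp* in 9972 genes with a mean of 10 CPM or more, after *Smim3* (0.27). The nearest genes to *Thbs2* were *Gm8995* (0.19), *Mmp14* (0.19), a membrane-bound collagenase, and *Jpt2* (0.20). The nearest to *Thbs1* were the myeloid membrane genes *Cd33* and *Ms4a6b* (0.28 each) and *Ptgs2* (0.29), the inducible cyclooxygenase. *Cd33*, for example, read 57.5, 11.9 and 22.6 CPM in KO, against 4.76 to 8.15 CPM in WT. *Thbs3* lay nearest to *Slc12a4* (0.09), a potassium chloride cotransporter, *Rcn3* (0.12) and *Olfml2b* (0.12), and at 0.93 or more from every other member. *Thbs4* had no close neighbour by this measure, the nearest being *Piezo2* (0.78), a mechanically gated channel, *Socs3* and *Capn6* (0.82 each). The distance is not scaled by a gene's own spread, so it tends to be larger for variable genes. *Thbs4* had 1 low library, WT replicate 2, at -2.20 from the WT mean in log2 CPM. These distances describe 7 libraries in 2 genotypes, and genes that differ between the groups are near each other for that reason too.

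Marker transcripts of other cell types also differed between the libraries, some in the order of a member and some not, and are given here. *Thbs1*, *Thbs2* and *Thbs4* all ordered the KO libraries as the macrophage markers did. Those 12 marker genes summed to 4329, 759 and 1349 CPM in KO replicates 1, 2 and 3 and to 353 to 608 CPM in WT. DESeq2 called 11 of these 12 higher, where it called 5.32% of all genes tested higher, and edgeR called 0. *Lyz2*, lysozyme, read 1879, 260.2 and 484 CPM in KO, against 95.2 to 205 CPM in WT. Platelet markers, of interest because platelets carry TSP-1, summed over 12 genes to 173, 21.9 and 78.8 CPM in KO and to 20.6 to 27.0 CPM in WT. *Pf4* made up most of the sum in KO replicate 1. The median log2 deviation from WT over the tested platelet markers was 2.02, -0.50 and 3.03 in KO replicates 1, 2 and 3. Of the 11 tested, 9 were positive and 2 negative. DESeq2 called 4 higher, where it called 5.32% of all genes tested higher, and edgeR called 0. *Pf4*, platelet factor 4, read 125, 13 and 24.5 CPM in KO, against 8.95 to 14.2 CPM in WT, and *Ppbp*, another platelet chemokine, read 29.0, 0.728 and 14.5 CPM in KO, against 0.978 to 3.45 CPM in WT. For both, KO replicates 1 and 3 lay above all WT libraries and KO replicate 2 did not. The 10 smooth muscle markers summed to 3576, 13934 and 7269.6 CPM in KO and to 18516 to 20445 CPM in WT. Within KO this was the opposite order to *Thbs1*, *Thbs2* and *Thbs4*. The part of macrophages, platelets and smooth muscle in the differences of *Thbs1*, *Thbs2* and *Thbs4* was not tested.

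For the pentamers, markers of tissues next to the aorta were examined. Heart muscle markers, 10 genes, summed to 759, 1343 and 41.6 CPM in KO replicates 1, 2 and 3 and to 92.0 to 171 CPM in WT, with *Myh6*, cardiac myosin, at 411, 500.2 and 0.738 CPM in KO, against 2.35 to 47.0 CPM in WT. KO replicate 3 was highest in the 10 skeletal muscle markers, at 224 CPM against 28.7 and 22.3 CPM in KO replicates 1 and 2 and 7.39 to 12.1 CPM in WT, and the part of heart and skeletal muscle in the *Thbs4* level was not tested. Tendon markers, 10 genes, summed to 849, 388 and 347 CPM in KO and to 259 to 445 CPM in WT and overlapped, with a median log2 fold change of -0.09. Cartilage markers, 12 genes of which *Matn1* was under 0.1 CPM in every library, summed to 429, 171 and 224 CPM in KO and to 40.4 to 98.6 CPM in WT, so that KO lay above WT where *Comp* overlapped. *Acan*, aggrecan, and *Col10a1*, the collagen of hypertrophic cartilage, made up most of each KO sum. *Acan* read 132, 88.9 and 76.4 CPM in KO, against 22.2 to 49.5 CPM in WT. *Col10a1* read 114, 32.7 and 78.1 CPM in KO, against 0.115 to 0.486 CPM in WT, and was called by edgeR (adjusted p = 0.0365). Of the 11 cartilage markers tested, 7 were positive and 4 negative. DESeq2 called 5 higher and 0 lower, where it called 5.32% of all genes tested higher. The part of tendon and cartilage in the *Comp* level was not tested. Fibroblast markers summed to 2839 to 3846 CPM in KO, against 2849 to 3715 CPM in WT. Median log2 fold changes were -0.08 over the fibroblast markers, -0.03 over the endothelial, 0.06 over the adipocyte and -1.11 over the neural ones. The 10 neural markers summed to 68, 72.1 and 218 CPM in KO, against 65.1, 84.5, 1256 and 75.4 CPM in WT, where WT replicate 3 stood apart.

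**Figure D4:**
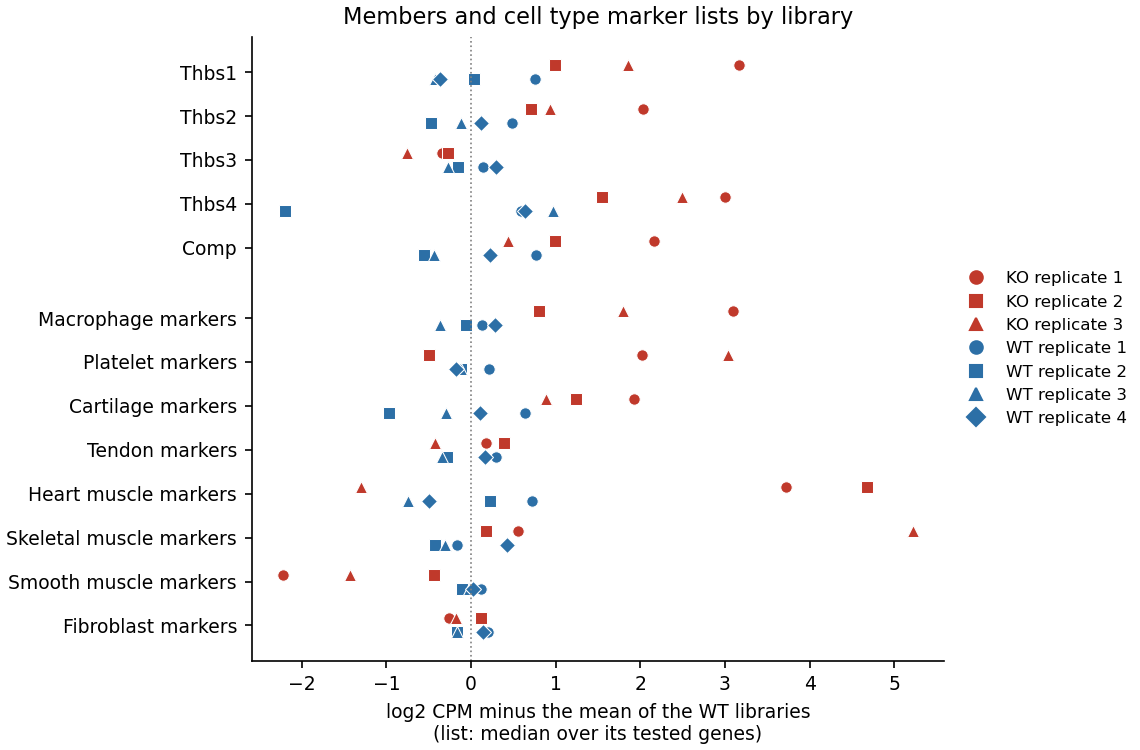
Log2 CPM minus the mean of the WT libraries for each member (top) and the median of the same over the tested genes of each marker list (bottom), with KO libraries in red and WT libraries in blue. KO replicate 1 is highest for Thbs1, Thbs2, Thbs4 and Comp and for macrophage and cartilage markers (3.10 and 1.92), KO replicate 2 for heart muscle markers (4.68) and KO replicate 3 for platelet and skeletal muscle markers (3.03 and 5.22).

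Receptor genes for thrombospondins had no common direction, with 11 positive and 10 negative among 21 tested. The median log2 fold change was 0.06 (all genes tested, -0.028), and edgeR called 0. DESeq2 called 1 higher (*Sirpa*), where it called 5.32% of all genes tested higher. It called 4 lower (*Itgb3*, *Itga3*, *Itga7*, *Itga9*), where it called 3.05% of all genes tested lower. *Cd36*, the scavenger receptor for the type 1 repeats, averaged 796 ± 304 CPM in KO, against 763 ± 172 CPM in WT, and *Cd47*, the receptor for the carboxyl end of TSP-1, 106 ± 21.7 CPM in KO, against 84.2 ± 8.98 CPM in WT (± SD, 3 KO and 4 WT libraries). *Itgb3*, the β3 integrin that pairs with αv and binds thrombospondins, read 85.1, 94.3 and 80.8 CPM in KO, against 143, 121, 147 and 122 CPM in WT. Its groups did not overlap, and its log2 fold change of -0.62 (SE 0.12; adjusted p = 0.165 in edgeR; DESeq2 adjusted p = 0.00072) was -0.61 without KO replicate 1. *Itga7*, the α7 integrin that binds COMP, averaged 112 ± 23.7 CPM in KO, against 171 ± 19.0 CPM in WT, a log2 fold change of -0.61 (SE 0.17; adjusted p = 0.181 in edgeR), and *Itga3*, the α3 integrin, averaged 94.4 ± 28.1 CPM in KO, against 157 ± 17.3 CPM in WT. Smooth muscle markers were lower in the same KO libraries, and *Sirpa*, the CD47 ligand of macrophages (259, 57.4 and 82.8 CPM in KO, 42.5 to 59.5 CPM in WT), was highest where macrophage markers were. The part of these cells in the receptor levels was not tested.

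Genes around the nitric oxide and cGMP pathway, which CD47 dampens when TSP-1 binds it, were negative in 9 of 10 tested cases. Their median log2 fold change was -0.54. The list mixes genes that carry the signal with the phosphodiesterases *Pde5a* (-0.49) and *Pde3a* (-0.56), which break cGMP down, and with NADPH oxidase genes. The count of negative genes therefore gives no direction for the pathway. edgeR called 0, and DESeq2 called *Gucy1b1* and *Mrvi1* lower, where it called 3.05% of all genes tested lower. *Gucy1b1*, a subunit of the guanylate cyclase that senses nitric oxide, read 40.3, 136 and 76.3 CPM in KO, against 187, 165, 195 and 179 CPM in WT, without overlap (log2 fold change -1.11, SE 0.36, edgeR adjusted p = 0.21). *Gucy1a1*, its partner subunit, averaged 98.5 ± 51.7 CPM in KO, against 179 ± 36.5 CPM in WT, and the groups overlapped. *Mrvi1*, a substrate of the cGMP-dependent kinase in smooth muscle, averaged 123 ± 69.5 CPM in KO, against 264 ± 30.9 CPM in WT. Like the smooth muscle markers, these 3 genes were lowest in KO replicate 1 and highest, within KO, in replicate 2, and the part of smooth muscle content was not tested. *Cyba*, a subunit of NADPH oxidase, was the positive one, at 40.6 ± 25.5 CPM in KO, against 19.4 ± 2.69 CPM in WT.

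TGF-β, which TSP-1 can activate as a protein, was followed through its own genes and its target genes. Among 14 ligand, latency and receptor genes the median log2 fold change was -0.08 and edgeR called 0. DESeq2 called 1 higher, *Lrrc33*, where it called 5.32% of all genes tested higher. *Lrrc33* holds latent TGF-β on myeloid cells and read 80.3, 14.7 and 21.9 CPM in KO, against 7.59 to 15.5 CPM in WT. *Tgfb1* averaged 63.4 ± 29.9 CPM in KO, against 40.2 ± 4.28 CPM in WT, with KO replicate 2 (41.8 CPM) inside the WT range. The latent TGF-β binding proteins pointed apart, with *Ltbp2* at 475 ± 118 CPM in KO, against 276 ± 76.6 CPM in WT, *Ltbp1* at 401 ± 178 CPM in KO, against 643 ± 66.1 CPM in WT, and *Ltbp4* at 779 ± 371 CPM in KO, against 1375 ± 224 CPM in WT. All 3 overlapped between the groups. Among 12 target genes the median log2 fold change was 0.33, and 0.00 without KO replicate 1. Here edgeR called 0 and DESeq2 called *Tgif1* and *Bhlhe40* higher, against 5.32% of all genes tested. *Bhlhe40*, a transcriptional repressor with many other inducers, read 101, 97.1 and 118 CPM in KO, against 43.8 to 72.9 CPM in WT, and *Tgif1*, a corepressor of the pathway, 34.9, 9.81 and 15.7 CPM in KO, against 7.88 to 8.95 CPM in WT. *Fn1*, fibronectin, also separated the groups, at 3721 ± 1082 CPM in KO, against 2349.7 ± 387 CPM in WT. *Ccn2*, a common reporter of the pathway, overlapped between the groups, with 1246 ± 317 CPM in KO, against 1439 ± 1141 CPM in WT.

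Matrix genes whose products bind COMP or other thrombospondins were positive in 13 of 17 tested cases, and the median of their log2 fold changes was 0.60. DESeq2 called 6 higher (*Matn3*, *Col2a1*, *Col12a1*, *Acan*, *Lox*, *Tnfaip6*) and 0 lower, against 5.32% and 3.05% of all genes tested, and edgeR called 0. *Acan*, aggrecan, which COMP binds in cartilage, read 132, 88.9 and 76.4 CPM in KO, against 49.5, 22.2, 29.2 and 35.2 CPM in WT, a separation that *Comp* itself did not show. *Col2a1*, the main cartilage collagen, was at 27.5, 6.81 and 8.08 CPM in KO, against 0.225 to 1.33 CPM in WT (log2 fold change 4.09, SE 0.75, edgeR adjusted p = 0.165). *Lox*, lysyl oxidase, the collagen and elastin crosslinking enzyme, averaged 1110 ± 261 CPM in KO, against 534 ± 165 CPM in WT, and *Col12a1*, a collagen that links fibrils, 196 ± 171 CPM in KO, against 45.8 ± 10.7 CPM in WT (± SD, 3 KO and 4 WT libraries). All 4 of these genes had groups without overlap, but they were named for the smallest edgeR p of their list. Of the 17 tested genes of the list, 6 had every KO library above every WT library, as did 8.17% of all genes tested. The list shares *Acan*, *Col2a1* and *Matn3* with the cartilage marker list.

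Proteases that cut thrombospondins, *Mmp19* among them, were positive in 9 of 12 tested cases, with 0.73 as the median log2 fold change. edgeR called 0, while DESeq2 called *Adamts4*, *Mmp3*, *Mmp13* and *Mmp14* higher and 0 lower, against 5.32% and 3.05% of all genes tested. *Adamts4*, an aggrecan-cleaving protease that also cuts COMP, read 39.5, 5.05 and 26.4 CPM in KO, against 2.55 to 3.21 CPM in WT. Its log2 fold change was 2.97 (SE 0.58; adjusted p = 0.165 in edgeR), and 2.38 without KO replicate 1. *Adamts7*, which binds and cuts COMP, averaged 11.2 ± 5.44 CPM in KO, against 5.83 ± 0.722 CPM in WT (adjusted p = 0.215 in edgeR and 0.06 in DESeq2). *Adamts12*, its close relative with the same substrate, averaged 40.0 ± 7.80 CPM in KO, against 25.9 ± 6.04 CPM in WT (adjusted p = 0.218 in edgeR and 0.0839 in DESeq2). *Mmp3*, stromelysin 1, was at 48.2 ± 6.50 CPM in KO, against 26.9 ± 7.58 CPM in WT. *Mmp13*, collagenase 3, was at 4.78 CPM or less, and *Mmp14* averaged 205 ± 136 CPM in KO, against 75.5 ± 22.3 CPM in WT with overlap.

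**Figure D5:**
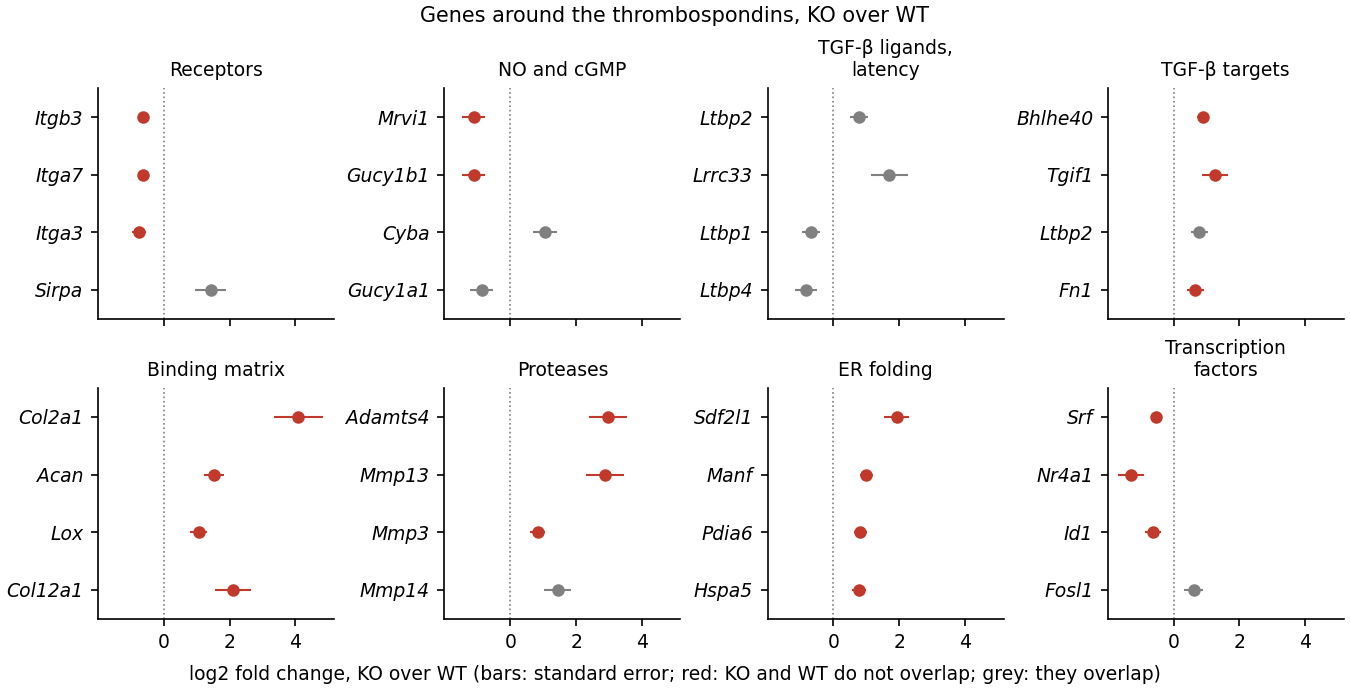
Log2 fold change of KO over WT with its standard error (edgeR) for the 4 genes with the smallest p in each of 8 lists around the thrombospondins, in red where the KO and WT libraries do not overlap and in grey where they do. The named receptors Itgb3, Itga7 and Itga3 lie below 0 (-0.62, -0.61 and -0.74), and the binding matrix genes lie above it (1.06 to 4.09).

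Folding genes of the endoplasmic reticulum were examined because TSP-4 has been shown in mouse heart to engage the stress sensor ATF6α. Over 14 tested genes the median log2 fold change was 0.61, and 0.43 without KO replicate 1, and 11 were positive. The median log2 deviation from WT was 1.01, 0.62 and 0.24 in KO replicates 1, 2 and 3, where *Thbs4* had 3.00, 1.55 and 2.49. DESeq2 called 7 higher (*Hspa5*, *Hsp90b1*, *Pdia4*, *Pdia6*, *Sdf2l1*, *Manf*, *Creld2*) and 0 lower, against 5.32% and 3.05% of all genes tested, and edgeR called 0. *Manf*, a secreted stress factor, read 128, 119 and 78.9 CPM in KO, against 58.8, 44.6, 48.6 and 65.5 CPM in WT. *Hspa5*, the chaperone BiP, was at 964 ± 218 CPM in KO, against 559 ± 81.7 CPM in WT, and *Sdf2l1*, another component of the folding machinery, at 25.3 ± 15.5 CPM in KO, against 6.63 ± 1.10 CPM in WT, both without overlap. *Pdia6*, a disulfide isomerase, was at 304 ± 92.6 CPM in KO, against 172 ± 17.6 CPM in WT. *Atf6* itself was at 77 ± 3.99 CPM in KO, against 74.9 ± 3.08 CPM in WT. The part of *Thbs4* or of cell content in the levels of these folding genes was not tested.

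Among 16 tested transcription factors reported to act on *Thbs1*, DESeq2 called *Srf* and *Nr4a1* lower and 0 higher, and edgeR called 0. Of all genes tested DESeq2 called 3.05% lower and 5.32% higher. The median log2 fold change was -0.19 (all genes tested, -0.028), and 11 of the 16 were negative. *Srf*, serum response factor, read 59.2, 63.6 and 54.5 CPM in KO, against 92.0, 84.3, 79.0 and 86.7 CPM in WT, a narrow and separate pair of ranges (log2 fold change -0.53, SE 0.10, edgeR adjusted p = 0.165). It was -0.54 without KO replicate 1. *Nr4a1*, an immediate early gene, was at 38.3 ± 17.4 CPM in KO, against 93.7 ± 29.1 CPM in WT, and *Id1*, a repressor of *Thbs1* in mouse, at 59.6 ± 20.2 CPM in KO, against 90.9 ± 12.6 CPM in WT (SD, n = 3 and 4; edgeR adjusted p = 0.252). *Fosl1*, a subunit of AP-1, was at 4.5 ± 1.22 CPM in KO, against 2.95 ± 0.565 CPM in WT, with overlap. *Egr1* ranged from 65.2 to 109.8 CPM in KO and from 55.1 to 259 CPM in WT.

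Proteins that carry the type 1 repeat outside the family showed no common direction, with 11 positive and 10 negative among 21 tested genes and a median log2 fold change of 0.14. edgeR called 0, and DESeq2 called *Cfp*, *Cilp* and *Ism1* higher and *Thsd4*, *Adgrb1*, *Sema5b* and *Unc5c* lower, against 5.32% and 3.05% of all genes tested. *Cilp*, a matrix protein of cartilage intermediate layer, read 53.1, 42.5 and 34.6 CPM in KO, against 11.8 to 26.6 CPM in WT. *Ism1*, isthmin, a secreted inhibitor of angiogenesis, averaged 15.3 ± 2.44 CPM in KO, against 7.20 ± 1.51 CPM in WT. *Thsd4*, a microfibril protein whose human gene is mutated in familial thoracic aneurysm, read 60.6, 247 and 153 CPM in KO, against 504, 285, 339 and 361 CPM in WT, without overlap (log2 fold change -1.28, SE 0.45, edgeR adjusted p = 0.225). It was -0.90 without KO replicate 1. *Unc5c*, a netrin receptor, was at 17.8 ± 6.83 CPM in KO, against 42.7 ± 11.3 CPM in WT. *Sema5b*, a semaphorin, was scarce, at 0.458 ± 0.156 CPM in KO, against 1.44 ± 0.553 CPM in WT.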

How the data were processed

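Per the labels' protocols, Trizol was used to extract RNA from the aortas and SMARTER mRNA-Seq kits to make the libraries. The estimated counts per gene deposited by the authors are whole numbers and are not scaled between libraries. The submitters' processing notes name GRCm38 and mm10 as builds. Which aligner and counting tool were used, and with which strand setting, is not given in the sources used here. Low counts pile up at multiples of 4 (1.2 to 1.33 times their neighbours), so counts are not taken as reads. All 7 columns were used, and no pair of libraries was a duplicate. The lowest mean chi-square, 22.7, was between KO replicate 2 and WT replicate 4. Pairs of WT libraries had 25.2 to 64.2, and KO replicate 2 had 164 and 53.7 with KO replicates 1 and 3.

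KO and WT were compared with R 4.3.3 and edgeR 4.0.16 (filterByExpr, the 5 members and *Mmp19* kept regardless, TMM scaling, glmQLFit and glmQLFTest, Benjamini-Hochberg over 19188 genes, threshold 0.05). The procedure was also run on simulated counts, and the share of changed genes it recovered is not given here. Alternatives were DESeq2 1.42.0, limma 3.58.1 voom with quality weights, 2 other scalings, 2 other filters, a robust fit, counts divided by 4, the replicate number as a block, and each library left out. Added after seeing the data were DESeq2 with each library left out and the overlap of the members under other scalings. Lengths are those of the exon union in GENCODE M21.

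The members and the 21 gene lists were chosen with earlier results of these data known. Named from each list other than the marker lists were the 4 genes with the smallest edgeR p, and for each member the 3 nearest profiles. One gene that this rule names is not reported here. *Cd36*, *Cd47*, *Tgfb1*, *Ccn2*, *Adamts7*, *Adamts12*, *Atf6*, *Thsd4*, *Egr1*, the markers *Acta2*, *Lyz2*, *Pf4*, *Ppbp*, *Myh6* and *Col10a1*, and other genes named only as DESeq2 calls were picked with their values known. Some genes stand on more than 1 list.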

Additional observations from a re-analysis of the deposited data

Results flagged for a closer look

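Among 70 genes checked in the 4 WT libraries, 5 had a WT library far from the other ones by Dixon's criterion, and chance flags about 1 in 20 such groups. No member of the family was among them. *Cd47* was at 97.6 CPM in WT replicate 3, against 78.9 to 80.8 CPM in the other WT libraries. *Tgfb1* was at 33.9 CPM in WT replicate 3, against 41.6 to 43.0 CPM. *Mmp14* was at 109 CPM in WT replicate 1, against 62.0 to 69.1 CPM, which put that library above KO replicate 2 (101 CPM). *Mmp13* was at 0.253 CPM in WT replicate 2, against 0.462 to 0.473 CPM, and *Ppbp* at 3.45 CPM in WT replicate 1, against 0.978 to 1.35 CPM.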

How the results depend on the processing

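All 5 members kept their direction under every alternative run. edgeR's count of 3 genes called was 0 without a filter (29455 genes tested), 7 with 50 counts in 3 libraries, 7 with counts divided by 4, 7 with limma-voom and 1606 with DESeq2. It ran from 0 to 1029 when 1 library was left out, being 1029 without KO replicate 2 and 0 without any 1 of the other libraries. At an unadjusted p under 0.05 edgeR counted 3299 genes with all libraries. DESeq2 called *Thbs1* (log2 fold change 2.22), *Thbs2* (1.33) and *Thbs4* (2.10), and edgeR without KO replicate 2 called *Thbs1* (2.63). Leaving out 1 library moved edgeR's log2 fold change of *Thbs1* between 1.41 and 2.63, of *Thbs2* between 0.78 and 1.61, of *Thbs3* between -0.54 and -0.31, of *Thbs4* between 1.70 and 2.44 and of *Comp* between 0.64 and 1.64. With DESeq2 these ranges were 1.40 to 2.60, 0.78 to 1.57, -0.53 to -0.30, 1.70 to 2.41 and 0.64 to 1.62. DESeq2 called *Thbs1* without WT replicates 1 to 4 in turn (2.54, 2.21, 2.08 and 2.09) and without KO replicates 1 to 3 in turn (1.40, 2.60 and 2.40). It called *Thbs2* without WT replicate 1 (1.51) or 4 (1.35) or KO replicate 2 (1.57) or 3 (1.51), *Thbs4* without WT replicate 2 (1.75) or 3 (2.37) or KO replicate 2 (2.41), and *Comp* without WT replicate 1 (1.62) or KO replicate 2 (1.47) or 3 (1.62). Of all genes tested it called 5.51%, 6.28%, 4.87% and 4.81% without WT replicates 1 to 4 in turn. Without KO replicates 1 to 3 in turn it called 3.9%, 15.9% and 5.08%, against 8.37% with all libraries. The number of members without overlap was 4 with TMM or DESeq2 size factors, and 3, without *Thbs3*, with library totals or the upper quartile. With TMM, 16.7% of all genes tested had no overlap in either direction, and this share was not computed with the other scalings. Log2 fold changes near 0 turned sign for *Cd36* (0.06; -0.23 to 0.31 with 1 library left out), *Ccn2* (-0.21; -0.46 to 0.53 with 1 library left out, 0.04 with the replicate block) and *Atf6* (0.04; -0.02 with limma-voom, -0.01 to 0.10 with 1 library left out). The cause was not tested for any of these changes. Deviations of same-numbered KO and WT libraries correlated at 0.0545, 0.0691 and 0.34, and KO replicates 1 and 2 correlated more with WT replicates 4 and 1, so the numbers were not taken as pairs. With the replicate block edgeR called 0 genes, and the members' log2 fold changes were 1.89, 1.26, -0.36, 2.55 and 1.27 in the order *Thbs1* to *Thbs4* and *Comp*. The lowest count of any member was 48, for *Thbs4* in WT replicate 2, at 0.676 CPM in a library of 74221884 counts.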
